A study of Rattus norvegicus with 27 samples.

Results

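Libraries of the medial prefrontal cortex (mPFC) whose number in the count table runs from 3 to 31 were compared with those numbered 32 to 54. The number is the header of each column, and it divides all 27 libraries of the series into 16 with the lower numbers and 11 with the higher numbers. All rats were adult male Wistar animals taken at rest from the home cage, and each gave 1 library of polyA RNA sequenced as single reads. The rats had been chosen for sequencing by their composite anxiety scores. The labels name the same genotype (Wistar rats), the same treatment (Learned helplessness) and the same tissue for every library, whereas the methods of the study describe a battery of repeated anxiety tests (elevated plus-maze, light-dark box and open arena). The methods also place the rats in more than 1 cohort, but the labels do not say which rat belonged to which. The sets therefore are not a treatment and a control. The labels and the methods differ in the thickness and position of the section and in the library kit, so these could not be assigned to either set.

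The boundary was placed where the library totals part, so depth and set cannot be told apart. The 16 libraries numbered 3 to 31 held 4907255 to 8568317 counted reads (median 7619609.5), and the 11 numbered 32 to 54 held 9404220 to 12771309 (median 10948982). On either side of the boundary, library 28 held 7965891 reads and library 31 held 6496818, against 12238280 in library 32 and 10948982 in library 34. After thinning to the lowest total, 13159 to 13335 rows were detected in the first set and 13184 to 13367 in the second. The tissue was neuronal cortex in both sets by its markers. Slc17a7, the vesicular glutamate transporter of cortical excitatory neurons, had 7479 to 13068 normalized counts in libraries 3 to 31 and 9571 to 13608 in libraries 32 to 54. A normalized count is the read count divided by a factor for library size.

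The classes of genes that differed are known from other settings. Macrophages and other myeloid cells are specified by the transcription factors PU.1 (Spi1) and C/EBP alpha (Cebpa), and in the brain they line vessels and meninges, apart from the microglia of the parenchyma. Actin-binding proteins and small GTPases shape the cell cortex in every cell type, and RNA-binding and ribosomal proteins carry out splicing and translation. At excitatory synapses, NMDA receptors and the auxiliary subunits of AMPA receptors sit in the postsynaptic density.

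Among the 11730 genes with a mean of at least 10 reads, 2145 differed at an adjusted p under 0.05 (edgeR's quasi-likelihood test, Benjamini-Hochberg adjusted), which is 18.3% of those tested. Of these, 1137 (9.69%) were higher in libraries 32 to 54 and 1008 (8.59%) were lower. The larger folds lay on the lower side. A total of 204 genes (1.74%) were lower by at least 1.5-fold, while 20 genes (0.171%) were higher by that much. The median log2 fold over all tested genes was 0.01. Fold here is the value in libraries 32 to 54 relative to libraries 3 to 31. The p-values measure the spread between rats within each set, and batch, cohort, genotype and depth cannot be told apart as sources of a difference between the sets.

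**Figure D1:**
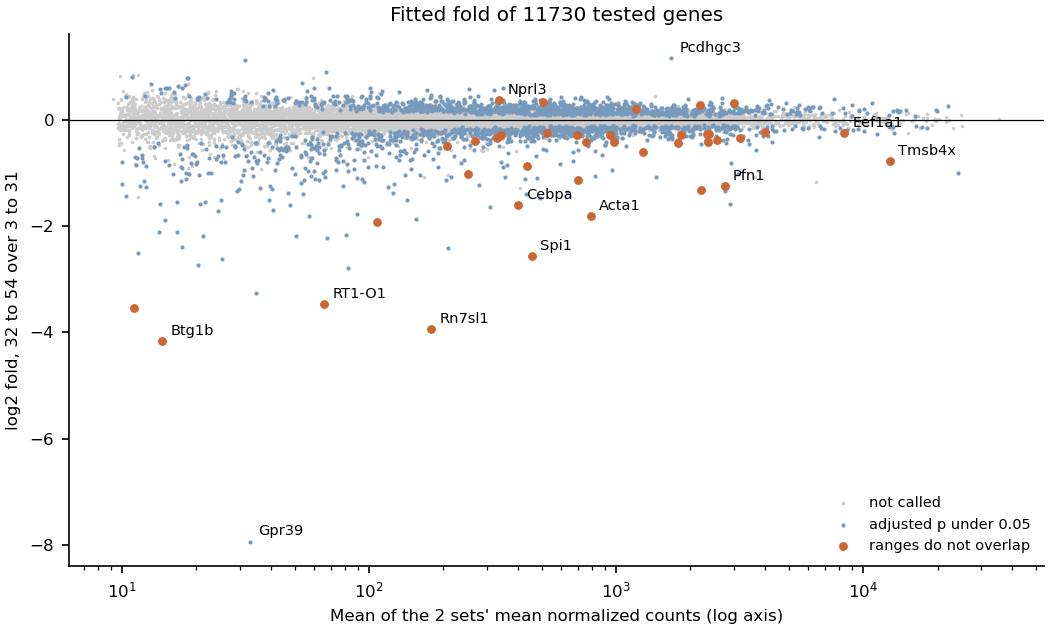
Fitted log2 fold (32 to 54 over 3 to 31) of each tested gene against its mean normalized count on a log axis. Grey points were not called, blue points had an adjusted p under 0.05, and the 38 orange points are genes whose ranges did not overlap, 33 of them below 0. The point near -8 is Gpr39.

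For 38 genes, every library of one set lay beyond every library of the other. All 38 were called. In libraries 32 to 54, 5 of them were higher (0.0426% of genes tested) and 33 were lower (0.281%). The gap was narrow for most. The ratio between the nearest libraries of the 2 sets had a median of 1.06 for the 33 lower genes, with a range from 1.00 to 1.77. The counts also moved with single libraries and with scaling. Without library 17 the genes without overlap rose to 60, of which 52 were lower and 8 higher. The number of higher genes was 10 without library 24, 14 without 26, 8 without 35, 14 without 39, 9 without 42 and 8 without 51. It was 9 with TMM-scaled counts and 8 with counts scaled by the library total. In counts thinned to the lowest total, 4 higher and 27 lower genes did not overlap, and 2 and 19 of these were among the genes named here.

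The lower genes without overlap included transcription factors of myeloid cells. Spi1, which encodes PU.1, ranged from 221 to 2064 normalized counts in libraries 3 to 31 (median 846) and from 75.6 to 186 in libraries 32 to 54 (median 136). Its lowest library in the first set stood above its highest in the second, and library 3 stood far above all others. The fitted difference was -2.56 ± 0.27 on the log2 scale (SE, n = 16 and 11), or 5.90-fold lower, with an adjusted p of 3.14e-07 in edgeR's quasi-likelihood test. Next to the boundary, Spi1 stood at 860 and 900 normalized counts in libraries 28 and 31 and at 101 and 136 in libraries 32 and 34.

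Cebpa, the C/EBP alpha gene that acts with PU.1 in myeloid cells, had 283 to 1303 normalized counts (median 627) in the first set. In libraries 32 to 54 it had 164 to 245 (median 199), so its ranges did not touch. It was 3.03-fold lower (log2 -1.60 ± 0.18, adjusted p = 8.66e-07 by edgeR). Etv3l, an ETS-family factor, was at 4.05 to 68.8 normalized counts against 0 to 3.63, where the highest library of the second set held 5 reads. Its fitted log2 fold of -3.53 ± 0.44 therefore rests on few reads, and it reached the mean of 10 reads through the first set.

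Related factors that overlapped slightly were also lower. Pparg, a nuclear receptor of lipid-handling macrophages, had 37.4 to 196 normalized counts against 12.6 to 52.2 and was 4.67-fold lower (adjusted p = 9.37e-07 by edgeR). Cebpb, an inflammatory C/EBP factor, had 363 to 1951 against 247 to 508 and was 2.56-fold lower (adjusted p = 6.88e-05 by edgeR). Runx1, a haematopoietic factor, had 14.7 to 93.3 against 9.29 to 24.3 and was 2.51-fold lower (adjusted p = 0.000169 by edgeR).

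A list of macrophage and leukocyte genes, written after these values were seen, had 43 of its 63 tested members lower in libraries 32 to 54 and none higher, beside 8.59% and 9.69% of all genes. Its choice fixes part of that count, which is given as a description. Selplg and P2rx7, which immune cells also express, are not on the list and were higher in libraries 32 to 54. Selplg was 1.38-fold higher (adjusted p = 0.0164 by edgeR) and P2rx7 was 1.45-fold higher (adjusted p = 0.000211 by edgeR). The median log2 fold of the list was -0.75, beside 0.01 over all genes. Of the 43, 38 were lower by at least 1.5-fold and 38 were highest in library 3. The list's summed level ran from 9015 to 22226 normalized counts in the first set and from 8380 to 10768 in the second. Its 20 members that were not called included Cd68 (0.41 ± 0.21 on the log2 scale), Lyz2 (0.05), Irf8 (0.10), Csf1r (0.06) and Tyrobp (-0.21 ± 0.13). In homogenised tissue, fewer cells of a type and less RNA per cell cannot be told apart.

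**Figure D2:**
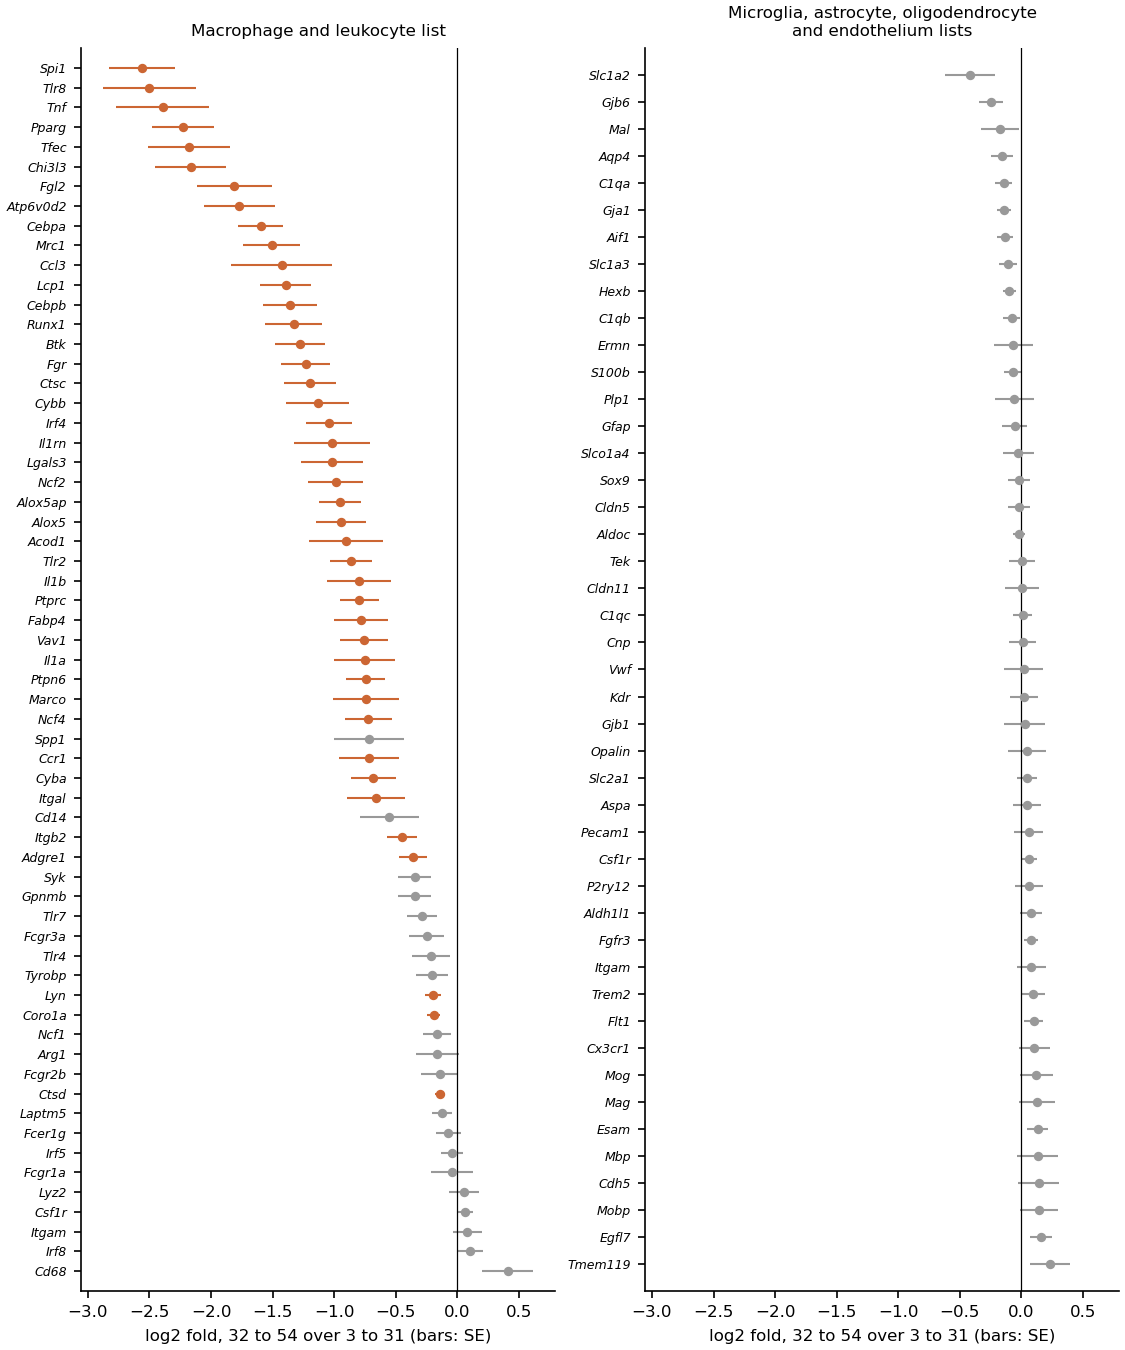
Fitted log2 fold (32 to 54 over 3 to 31) with SE for tested members of the macrophage and leukocyte list, 1 left out, at left and for the microglia, astrocyte, oligodendrocyte and endothelium lists at right. Orange points had an adjusted p under 0.05. Called members at left run from -2.56 for Spi1 to -0.14 for Ctsd, and no gene at right was called.

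Mrc1, the mannose receptor that marks perivascular and meningeal macrophages, had 96.4 to 384 normalized counts (median 177) in libraries 3 to 31. In libraries 32 to 54 it had 34.1 to 131 (median 70.7), and it was 2.84-fold lower (log2 -1.51 ± 0.23, adjusted p = 4.07e-05 by edgeR). The sets overlapped only between 96.4 and 131. Siglec1, the sialoadhesin of tissue macrophages, had 4.24 to 32.9 against 3.10 to 9.92 and was 2.36-fold lower (adjusted p = 0.00191 by edgeR). Tlr8, a Toll-like receptor gene, had 3.03 to 40.6 against 0 to 10.8, with 0 to 12 reads per library in libraries 32 to 54. Tlr2, a sensor of bacterial lipoproteins, had 74.8 to 240 against 43.3 to 109 and was 1.82-fold lower.

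Tnf, an inflammatory cytokine, had 6.07 to 112 normalized counts against 1.40 to 11.6 (log2 -2.39 ± 0.38, adjusted p = 5.87e-05 by edgeR). Libraries 32 to 54 held 2 to 15 reads of Tnf, so it reached the mean of 10 reads through the first set. Il1b, which encodes interleukin 1 beta, had 14.8 to 93.3 against 14.1 to 50.7 (log2 -0.80 ± 0.26, adjusted p = 0.0322 by edgeR). The call on Il1b was lost when any of 7 single libraries, numbers 28, 32, 34, 35, 39, 43 or 53, was left out, with adjusted p up to 0.0592, and with Rn18s as a covariate (adjusted p = 0.067 by edgeR). Chi3l3, a chitinase-like protein of alternatively activated macrophages, had 44.5 to 269 against 13.2 to 73.7 and was 4.49-fold lower.

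Some signalling and cytoskeletal genes of leukocytes were also lower. Btk, the kinase downstream of B-cell and Fc receptors, had 17.2 to 102 against 13.2 to 33.3 and was 2.43-fold lower. Lcp1, the leukocyte actin-bundling protein L-plastin, had 252 to 1454 against 170 to 342 and was 2.63-fold lower (adjusted p = 3.05e-05 by edgeR). Cybb, the catalytic subunit of the phagocyte oxidase, had 88.0 to 621 against 81.8 to 198 and was 2.19-fold lower. Ptprc, which encodes the pan-leukocyte CD45, was 1.74-fold lower (37.4 to 154 against a highest value of 65.6), and it was the single gene of the T and B cell list with enough reads to be tested. Cd2, Cd79a and Jchain of that list were listed at 0 in every library.

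None of the 11 tested microglia genes was called in either direction by edgeR, and their median log2 fold was 0.06. The list's summed level was 3406 to 4581 normalized counts in libraries 3 to 31 and 3158 to 4708 in libraries 32 to 54. Cx3cr1, the fractalkine receptor, had 62.7 to 193 normalized counts against 102 to 176, with a log2 fold of 0.10 ± 0.12. Csf1r, the receptor for the growth factor that microglia need, had 677 to 1008 against 739 to 1208, with a log2 fold of 0.06 ± 0.07. The range of P2ry12, a purinergic receptor of resting microglia, was 76.3 to 153 against 57.0 to 128. Of the 5 tested genes of the perivascular and meningeal macrophage list, Mrc1 and Siglec1 were lower (beside 8.59% of all genes) and the other 3 were not called. Siglec1 had few reads in libraries 32 to 54, so the first set helped it to the mean of 10 reads. In thinned counts 1 of 4 was lower. Cbr2 and Stab1 of that list were listed at 0, as were genes that every cell uses such as Upf1 and Eif4g1, so a listed 0 does not show that a gene was absent.

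No tested member of the oligodendrocyte (12), astrocyte (11), endothelium (11), pericyte and smooth muscle (10), or meningeal fibroblast (13 rows) lists passed the edgeR test, although DESeq2 and thinned counts each called 1 astrocyte gene lower. The blood (6), choroid plexus (4) and deep-layer neuron (10) lists had no called member either. Without libraries 12 and 20, 1 deep-layer gene was higher. Of 10 oligodendrocyte precursor genes 2 were higher (beside 9.69% of all genes), Sox10, a factor of the oligodendrocyte lineage (log2 0.35 ± 0.09), and C1ql1 (0.24 ± 0.07). Of 7 olfactory tract and bulb genes 2 were higher, Tbr1, a factor of cortical glutamatergic neurons (0.29 ± 0.09), and Doc2g (0.31 ± 0.10), and 1 was higher in thinned counts or without libraries 12 and 20. The interneuron (11), upper-layer (9) and striatal (10) lists had 1 higher gene each, and the striatal one was not called with size factors, total counts, thinned counts or without libraries 12 and 20. The pericyte and smooth muscle list had a median log2 fold of -0.46, with Acta2, the smooth muscle actin, at 44.5 to 912 against 37.9 to 379 (adjusted p = 0.125 by edgeR). Its summed level ran from 1079 to 5182 normalized counts in the first set and from 947 to 2987 in the second. For the meningeal fibroblast list the sums were 1099 to 18413 and 1366 to 16506. The part of vessel or meningeal tissue in the differences was not tested. In a fit with the meningeal fibroblast sum as a covariate, the log2 fold of Mrc1 was -1.50 and that of Spi1 was -2.58. That sum does not measure vessel tissue or macrophages, so the fit cannot decide the question.

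Promoters were searched for GAGGAAGT, a core of the PU.1 site. The search covered both strands of the 300 bases around each gene's start in the RefSeq table of GRCr8. Regulation by PU.1 was not tested. The letters were in 27 of the 816 promoters of lower genes (3.31%), 20 of the 925 of higher genes (2.16%), 235 of the 9494 of all tested genes (2.48%) and 670 of all 27457 promoters (2.44%). Among genes lower by at least 1.5-fold, 9 of 153 promoters held them (5.88%), but only 153 of those 204 genes had a promoter in the table, so that share is void as a check. None of the 27 promoters found for the 33 lower genes without overlap held them. Of the 63 tested genes of the macrophage list 43 had a promoter in the table, too few for a check, and 3 of these held the letters. Among them are Vav1, a guanine nucleotide exchange factor of blood cells (39.7 to 135 normalized counts against 29.5 to 74.9), and Ctsc, a lysosomal protease that activates granule enzymes (62.7 to 329 against 50.4 to 133). Among the list's members called lower, these 2 held the letters, and whether the letters act in them was not tested. The promoters of Vav1 and Ctsc are shown as examples. The searched letters, or their reverse complement ACTTCCTC, are in capitals. The build is that of the RefSeq table and not known to be that of the counts.
Vav1 promoter, chr9:2248705-2249004, GRCr8, + strand: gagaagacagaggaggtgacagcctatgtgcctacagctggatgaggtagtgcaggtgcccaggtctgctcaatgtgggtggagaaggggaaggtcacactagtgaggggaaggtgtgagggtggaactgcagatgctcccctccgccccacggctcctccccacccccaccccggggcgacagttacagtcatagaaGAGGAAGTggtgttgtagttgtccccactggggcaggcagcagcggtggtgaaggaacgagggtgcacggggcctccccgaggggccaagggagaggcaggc
Ctsc promoter, chr1:151440799-151441098, GRCr8, + strand: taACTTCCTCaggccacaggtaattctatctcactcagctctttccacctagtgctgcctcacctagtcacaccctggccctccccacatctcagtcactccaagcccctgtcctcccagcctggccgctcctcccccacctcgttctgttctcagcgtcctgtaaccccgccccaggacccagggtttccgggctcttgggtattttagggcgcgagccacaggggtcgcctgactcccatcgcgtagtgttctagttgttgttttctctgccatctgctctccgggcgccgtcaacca

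A second group of lower genes belongs to the cytoskeleton and membrane traffic. Acta1, skeletal muscle actin, had 448 to 3305 normalized counts (median 1279) in libraries 3 to 31 and 276 to 419 (median 360) in libraries 32 to 54. All first-set libraries were above all second-set libraries, and Acta1 was 3.49-fold lower (log2 -1.80 ± 0.23, adjusted p = 5.59e-06 by edgeR). Reads of its near-identical paralogs could be counted on it. The abundant actins moved less. Actb was 1.18-fold lower (adjusted p = 0.0088 by edgeR) with overlapping ranges, and Actg1 was not called (log2 -0.12 ± 0.05, adjusted p = 0.0572).

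Regulators of actin were among the most abundant genes without overlap. Pfn1, the monomer-binding protein profilin, had 1974 to 8730 normalized counts against 1440 to 1783 and was 2.35-fold lower (adjusted p = 1.29e-05 by edgeR). Tmsb4x, the actin-sequestering thymosin beta 4, had 10694 to 32048 against 8527 to 10490 and was 1.71-fold lower. Actr3, a subunit of the Arp2/3 complex, had 3092 to 4542 against 2544 to 2943 and was 1.26-fold lower. Vim, the intermediate filament vimentin, overlapped between the sets (1813 to 9386 against 877 to 2312) and was 2.98-fold lower.

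The small GTPases Rhoa, Arf6, Rap1b, Rab21 and Rab1a had no overlap. Rhoa, the switch for contractile actin, had 1188 to 2540 normalized counts against 992 to 1109 and was 1.51-fold lower (adjusted p = 8.73e-06 by edgeR). Arf6, which acts in endocytic recycling, had 378 to 1074 against 289 to 347 and was 1.81-fold lower. For Rap1b, Rab21 and Rab1a the log2 folds were smaller, at -0.33, -0.27 and -0.26. In a list of 46 tested cytoskeletal and small GTPase genes, also written after the values were seen, 27 were lower (beside 8.59% of all genes), 1 was higher (beside 9.69%) and 9 were lower without overlap (beside 0.281%). Its choice too fixes part of these counts.

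**Figure D3:**
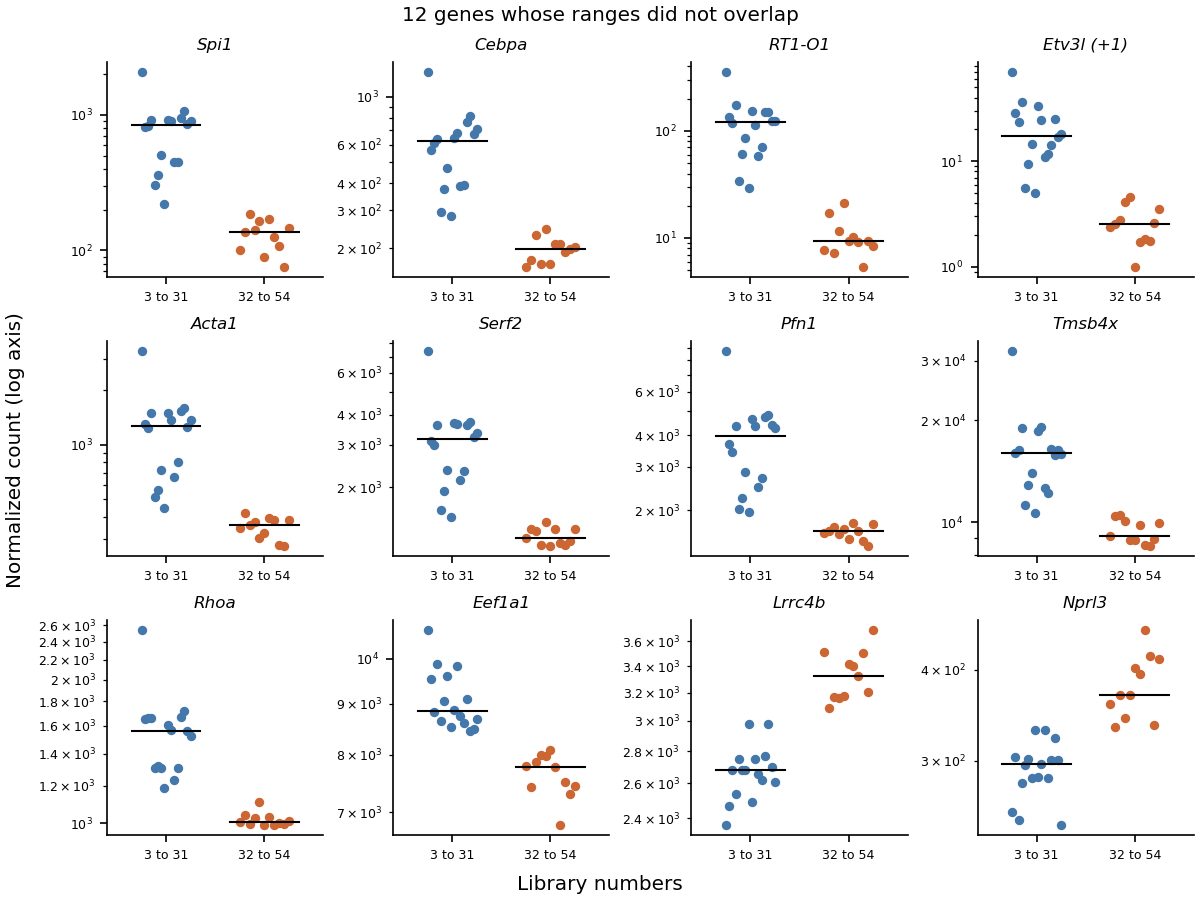
Normalized counts (log axis) of 12 genes in each library numbered 3 to 31 (blue) and 32 to 54 (orange), with the median as a black line and 1 added for Etv3l. For each gene the sets do not overlap, Lrrc4b and Nprl3 being higher in libraries 32 to 54 and the other 10 lower.

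The remaining lower genes without overlap act in many cell types. Btg1, an antiproliferative factor of quiescent lymphocytes and neural progenitors, had 516 to 1936 normalized counts against 390 to 503 and was 2.17-fold lower. The row Btg1b, which the symbol marks as a copy, had 7.94 to 48.9 against 0 to 4.50, where the highest library of the second set held 5 reads. Reads shared by the copies could be split between the rows. Serf2, a small protein that binds amyloid-forming chains, had 1510 to 7382 against 1140 to 1429 and was 2.49-fold lower (adjusted p = 5.65e-06 by edgeR). RT1-O1, a rat MHC class I gene, had 29.3 to 355 against 5.37 to 21.1 and was 11.1-fold lower (adjusted p = 1.9e-07 by edgeR). Camta1, a calmodulin-binding transcription activator, had 74.9 to 398 against 37.5 to 55.2 on 1 of the rows into which its counts were split.

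Syncrip, an hnRNP that binds mRNA, had 217 to 557 normalized counts against 145 to 192 and was 2.00-fold lower (adjusted p = 3.44e-07 by edgeR). Serbp1, an mRNA-binding protein on ribosomes, had 1779 to 2656 against 1290 to 1681 and was 1.34-fold lower. Ube2d3, a ubiquitin-conjugating enzyme, had 2318 to 3701 against 1843 to 2152 and was 1.33-fold lower. Eef1a1, the elongation factor that delivers tRNA, had 8461 to 10685 against 6795 to 8093 and was 1.19-fold lower. The others, Spcs3, Hnrnpf, Eny2, Eed, Zfand5, Nap1l1, Rbx1, Fbxl14, Eif4a1, Pals2 and Hnrnpk, ran from 1.39-fold (Spcs3) to 1.16-fold (Hnrnpk) lower. No 2 of the 38 genes were neighbours among the tested genes.

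Across the 33 lower genes, library 3 was the highest of its set for 27, and library 17 was the lowest of its set for 15. In the first set, the median log2 difference from the set mean over the 33 genes was 0.50 in library 3 and -0.20 in library 17, with -0.16 in library 12 and -0.21 in library 13. In libraries 32 to 54 these medians ran from -0.62 in library 51 to -0.37 in library 53. The genes share the libraries and the size factors, and the order of libraries is a description.

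**Figure D4:**
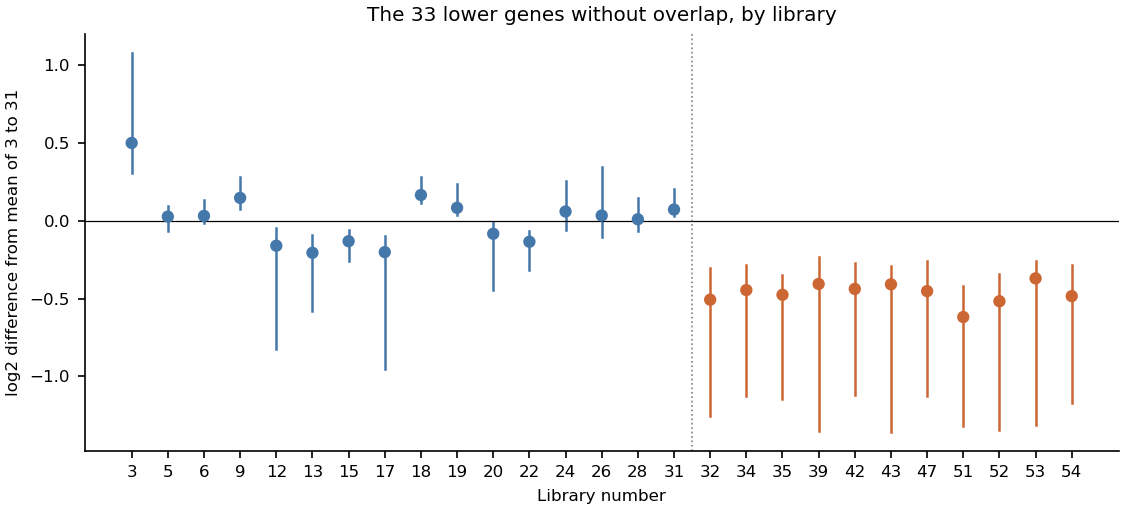
Median over the 33 lower genes without overlap of the log2 difference from the mean of libraries 3 to 31, by library number, with lines from the first to the third quartile of the genes. Blue libraries (3 to 31) run from -0.21 to 0.50 and orange libraries (32 to 54) from -0.62 to -0.37.

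Lists of genes for RNA and protein handling held more lower members than the background of 8.59%. Of 82 tested cytosolic ribosomal protein rows, 25 were lower and none higher, with a median log2 fold of -0.12. Of 45 mRNA splicing genes, 15 were lower and 2 higher. Translation initiation and nonsense-mediated decay had 12 of 33 lower and 2 higher, proteasome subunits 11 of 38 lower and 0 higher, and heat shock and chaperone genes 7 of 16 lower and 0 higher. Mitochondrial ribosomal proteins (6 of 69 lower, 3 higher) and nuclear-encoded oxidative phosphorylation genes (8 of 75 lower, 1 higher) were near the background on the lower side.

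Most of these changes were small. Ddx5, an RNA helicase of the spliceosome, had 6393 to 8776 normalized counts against 5413 to 6408 and was 1.24-fold lower (adjusted p = 6.86e-06 by edgeR). Eif4g2, a scaffold for cap-independent initiation, had 3822 to 7050 against 3230 to 3898 and was 1.32-fold lower. Rps27, a protein of the small ribosomal subunit, had 706 to 1748 against 608 to 762 and was 1.49-fold lower (adjusted p = 0.000124 by edgeR). Rps12l4 was lower by more, 11.3 to 70.3 against 2.48 to 12.3, but it is a ribosomal protein copy whose reads may belong to its parent gene. Dnaja1, a co-chaperone of Hsp70, was 1.14-fold lower.

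**Figure D5:**
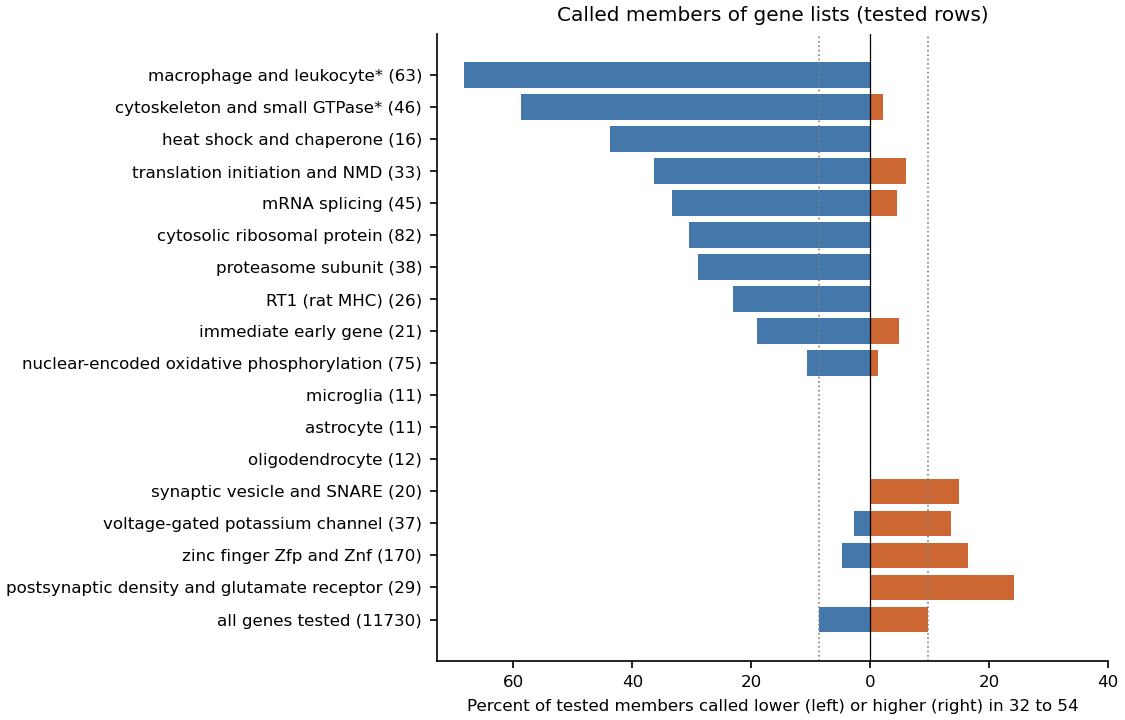
Percent of the tested members of each list called lower (blue, left) or higher (orange, right) in libraries 32 to 54, with tested rows in brackets and the shares over all genes as dotted lines. The lists with an asterisk were written after the values were seen, and microglia, astrocyte and oligodendrocyte lists had no called member.

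RT1 genes, the MHC of the rat, had 6 of 26 tested rows lower (23.1%, beside 8.59% of all genes) and none higher. RT1-CE4, a class I gene, had 14.8 to 87.2 normalized counts against 12.5 to 26.1 and was 2.22-fold lower, and RT1-Ba, a class II chain, had 29.3 to 154 against 6.97 to 48.7 and was 3.02-fold lower (adjusted p = 0.000466 by edgeR). Cd74, the class II invariant chain, had overlapping ranges of 58.3 to 356 and 34.9 to 350 and was not called. RT1 genes are similar in sequence and vary between animals, and the counts could be split between them.

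Among the 21 immediate early genes, which neurons and other cells induce within minutes of a stimulus, 4 were lower (beside 8.59% of all genes) and 1 was higher. The number lower was 8 with DESeq2, 6 with size factors in edgeR and 3 in thinned counts. Nr4a3, an orphan nuclear receptor, had 374 to 538 normalized counts against 275 to 416 and was 1.31-fold lower (adjusted p = 0.00024 by edgeR). Egr2 was 1.66-fold lower (79.9 to 313 against 59.6 to 217), while Egr4 was 1.33-fold higher (295 to 578 against 357 to 776). The 2 called genes of 18 in the glucocorticoid-responsive list (11.1%) were both lower, a share near the 8.59% of all genes. Nfkbia, the inhibitor of NF-kappa B, was 1.71-fold lower (263 to 976 against 181 to 304), and the other was Tsc22d3. Of 19 tested interferon-stimulated genes, 2 were lower (10.5%, also near 8.59%) and none higher, among them Ifih1, a sensor of double-stranded RNA, at 39.4 to 84.1 against 23.2 to 50.3 (1.46-fold lower, adjusted p = 0.00191 by edgeR).

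The 5 genes that were higher without overlap had small folds. Lrrc4b, a postsynaptic adhesion protein, had 2364 to 2979 normalized counts (median 2679) in libraries 3 to 31 and 3089 to 3695 (median 3326) in libraries 32 to 54. It was 1.25-fold higher (log2 0.33 ± 0.04, adjusted p = 4.03e-07 by edgeR). Nprl3, a subunit of the GATOR1 complex that restrains mTORC1, had 245 to 331 against 334 to 453 and was 1.31-fold higher. Lrrc24, a leucine-rich repeat membrane protein, had 344 to 505 against 515 to 619 and was 1.28-fold higher.

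Pianp, a ligand of the inhibitory receptor PILR alpha in neural tissue, had 1703 to 2243 normalized counts against 2273 to 2828 and was 1.23-fold higher. Hgs, the ESCRT-0 subunit that sorts ubiquitinated receptors, had 962 to 1221 against 1231 to 1361 and was 1.16-fold higher (adjusted p = 5.14e-05 by edgeR). All 5 sets of ranges were nearly in contact.

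The called genes of the synaptic lists were higher. Of 29 tested genes for the postsynaptic density and glutamate receptors, 7 were higher (24.1%, beside 9.69% of all genes) and none lower, with a median log2 fold of 0.08. They were Cacng8, Grin2d, Dlgap3, Grin2b, Grin1, Cacng2 and Cacng3. Higher calls were more frequent among abundant genes in general, at 15.2% of the 2346 genes with the highest mean. Cacng8, an auxiliary subunit of AMPA receptors, had 515 to 963 normalized counts (median 756) against 895 to 1227 (median 1046). It was 1.37-fold higher (log2 0.45 ± 0.06, adjusted p = 1.88e-05 by edgeR). Grin2d and Grin2b, NMDA receptor subunits, had 112 to 207 against 173 to 256 and 313 to 593 against 465 to 766.

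Presynaptic and channel genes gave smaller shares. Of 20 tested synaptic vesicle and SNARE genes, 3 were higher (1 in thinned counts), a share near the 9.69% of all genes, among them Syn1, the vesicle-tethering synapsin, with 7629 to 12481 normalized counts against 10799.5 to 13319.9 (1.26-fold, adjusted p = 0.000263 by edgeR). Of 37 voltage-gated and other potassium channels, 5 were higher (13.5%, near the 9.69% of all genes) and 1 was lower (2.70%, beside 8.59%). Kcnk4, a mechanosensitive background channel, was 1.25-fold higher, and the lower channel was Kcna3, which is known for its part in T cells and microglia, at 15.2 to 49.9 against 4.21 to 27.6. Kcna2 and Kcnk9 were not called (adjusted p = 0.305 and 0.481 by edgeR).

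Transcriptional regulators and markers of neuronal subtypes added single genes. Of 170 Zfp and Znf zinc finger genes, 28 were higher (16.5%, beside 9.69% of all genes) and 8 lower (4.71%, beside 8.59%). In thinned counts 19 of 165 were higher. Zfp574 had 422 to 565 normalized counts against 545 to 672 and was 1.30-fold higher (adjusted p = 1.82e-06 by edgeR). Ntng2, netrin-G2, an axonal adhesion protein listed for the claustrum and layer 6b, had 150 to 269 against 253 to 369 and was 1.50-fold higher (adjusted p = 4.16e-06 by edgeR). The other 7 tested genes of that list were not called. Gad1, which makes GABA, had 2332 to 2990 against 2478 to 3303 and was not called. Solute carriers had 24 of 237 higher and 12 lower, collagens 3 of 22 higher, clock genes 1 of 16 higher, GABA-A receptor subunits 1 of 13 higher, cholesterol synthesis 1 higher and 1 lower of 22, histones 1 higher and 3 lower of 13, and antigen processing 2 of 11 lower. Glycolysis had 3 of 16 higher (18.8%, beside 9.69% of all genes) and none lower, although 2 were lower with DESeq2, 2 with total counts and 1 with size factors. Gapdh was 1.09-fold higher (adjusted p = 0.0147 by edgeR).

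Short structural RNAs differed most in a few libraries. Rn7sl1, the RNA of the signal recognition particle, had 54.6 to 1968 normalized counts (median 166) against 9.38 to 47.2 (median 17.7), with no overlap. Its log2 fold was -3.94 ± 0.60, but libraries 12 and 20 held 1205 and 1968 normalized counts, and without both the log2 fold was -2.83 (adjusted p = 2.07e-07 by edgeR). Rn18s, the 18S ribosomal RNA, was also highest in these libraries, at 19987 and 16899.5, and library 47 was the highest of the second set at 5243. Its call (log2 -1.32 ± 0.47, adjusted p = 0.0491 by edgeR) was lost without libraries 12 and 20 (log2 -0.25, adjusted p = 0.518), and without any of 13 single libraries, numbers 9, 12, 20, 32, 34, 35, 39, 42, 43, 51, 52, 53 or 54, with adjusted p from 0.052 to 0.126. It was also lost with total counts (0.0502), with no filter (0.056) and with the oligodendrocyte (0.0613) or meningeal (0.0697) covariate, while DESeq2 gave a log2 fold of -0.57 (adjusted p = 0.000328).

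Rpph1, the RNA of ribonuclease P, was at 212 and 707 normalized counts in libraries 12 and 20 and at 0.775 to 13.5 in all others. Its fitted log2 fold of -3.26 was -1.62 without library 20 (adjusted p = 0.0948 by edgeR) and was 0.03 without libraries 12 and 20 (adjusted p = 0.961). Bc1, a neuronal RNA that represses translation at dendrites, had 8447 to 62352 normalized counts against 8551 to 21140.1 and was 1.99-fold lower (adjusted p = 0.00225 by edgeR). Meg3, a maternally expressed long RNA of neurons, was 1.32-fold higher. The 10 tested members of this list gave 4 lower and 2 higher (beside 8.59% and 9.69% of all genes), with 2 lower and 2 higher without libraries 12 and 20 and 6 lower with size factors in edgeR. The libraries are labelled as polyA RNA, and the recovery of RNAs without a tail was not tested.

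Both gene lists that the study tied to anxiety measures held called members. These lists were chosen on these same samples, so they are not independent evidence of a direction. Of 28 genes tied to elevated plus-maze measures, 11 were lower in libraries 32 to 54 (39.3%, beside 8.59% of all genes) and 2 were higher (7.14%, beside 9.69%), with a median log2 fold of -0.14. Cytip, a leukocyte scaffold protein, had 10.1 to 91.8 normalized counts against 3.10 to 18.9, and F7, coagulation factor VII, had 6.07 to 56.9 against 1.55 to 24.3. Both fell by over 1.5 on the log2 scale (-1.53 ± 0.30 and -1.57 ± 0.30). Together with Mrc1, Btk and Bc1 they are in that list. Of 81 genes tied to light-dark measures, 20 were higher (24.7%) and 7 lower (8.64%). Without libraries 12 and 20 these counts were 15 and 2, and in thinned counts 3 were lower. Sts, steroid sulfatase, was among the higher genes at 117 to 181 against 178 to 261 (1.35-fold higher, adjusted p = 6.58e-05 by edgeR). Anxiety scores by rat were not used here.

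A few genes took separate levels rather than a shifted range, though of those described here only Gpr39 met the rule of the closing section. Gpr39, a zinc-sensing receptor, had 117 to 191 normalized counts in libraries 3, 5, 6, 13, 15, 26 and 31 and 0 in the other 9 of the first set. In libraries 32 to 54 it was 0 in 10 and 2 reads in library 54. Pkd2l2, a polycystin family channel, was at 61.2 to 102 in libraries 3, 6, 9, 18, 19, 24, 26 and 31 and between 1.11 and 15.9 in all other libraries of both sets.

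Pcdhgc3 and Pcdhga1 are gamma protocadherins, adhesion proteins made from 1 gene cluster with shared last exons. Pcdhgc3 had 590 to 1128 normalized counts in 14 libraries of the first set and 2338 and 2596 in libraries 12 and 5. In the second set it had 2037 to 3149 in 10 libraries and 785 in library 54. Pcdhga1 ran the other way, at 465 to 561 in those 14 libraries, 104 and 187 in libraries 12 and 5, 14.7 to 237 in 10 libraries of the second set and 637 in library 54. Of 22 tested clustered protocadherins 3 were higher and 2 lower, near the shares of all genes (9.69% and 8.59%). Whether these levels follow genotype, cohort or the handling of the libraries cannot be told apart.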

How the data were processed

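The authors deposited a table of raw counts per gene for 27 libraries of medial prefrontal cortex RNA, with 36865 rows named by NCBI gene ID. The submitters' processing notes name Trimmomatic, STAR and HTSeq. Versions, genome build, annotation and strandedness are not given in the sources used here, so counts of overlapping genes, paralogs and the 436 rows split over loci are uncertain. A further 26 columns without header or values were not used. Symbols came from the RefSeq list of GRCr8 (28157 rows, 99.7% of counts). Library totals ran from 4907255 to 12771309 counts; the share that 3 counts can show was 2.35e-05% to 6.11e-05%, for counting error only.

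Libraries were grouped by the number in their title. Genes were tested where the mean raw count reached 10, with edgeR 4.0.16 (glmQLFit and glmQLFTest, TMM, no covariates, two-sided, Benjamini-Hochberg) in R 4.3.3. That mean is over all 27 libraries, so genes with few reads in either set could pass through the other. Tnf, Tlr8, Etv3l, Btg1b and Gpr39 did so. Ranges were compared on counts divided by size factors of DESeq2 1.42.0. An SE is the log2 fold divided by the square root of the quasi-likelihood F. Alternatives were DESeq2's Wald test, other scalings and filters, thinning, marker or Rn18s covariates, and leaving out libraries. Lists are described by counts and medians, with no set test.

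The division of libraries, the members and the lists were chosen with earlier results of these data known. Genes were named by this rule: the largest folds and highest means among called genes without overlap, up to 4 called members per list, defining markers, 13 preset genes (among them Bc1, Mrc1 and Actb), genes near absent in one set (0 found) and neighbours without overlap (0 found). Genes of the macrophage and cytoskeleton lists, the remaining genes without overlap, Gpr39, Pkd2l2, Vim, Actg1 and the uncharacterised row in the closing section were named after their values were seen. Values of 2 genes are not reported here, though the counts of lists include them.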

Additional observations from a re-analysis of the deposited data

How the results depend on the processing

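Depth limits these results because it follows the sets entirely. Of 199 named genes that were called, 195 kept their direction and call with DESeq2's Wald test (2 lost it and 2 had no value), 196 with size factors in edgeR, 172 in counts thinned to the lowest total (20 lost it and 7 had no value), 191 without libraries 12 and 20, and 171 with Rn18s as a covariate. The number of genes called was 1415 with the Rn18s covariate, 713 of them higher, and 224 with a fold of at least 1.5 required, of which 20 were higher and 204 lower. At that fold, 12 were higher without library 51, 10 with the Rn18s covariate and 36 with no filter on low counts. The lower genes then numbered 209, 185 and 263. Leaving out each library in turn gave 1806 to 2512 called genes (943 to 1333 higher, 843 to 1179 lower), and 38 to 60 genes without overlap, from 5 to 14 higher and from 33 to 52 lower. Genes higher without overlap numbered 9 with TMM-scaled counts and 8 with counts scaled by library total. The sign turned for Rpph1 without libraries 12 and 20 (0.0272) and with the Rn18s covariate (0.38), and for Rn18s with itself as the covariate (0.0061), which that covariate removes by construction. The cause of the other changes was not tested. No paired analysis was possible because the library numbers are not shared between the sets.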

Other observations

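Genes with 2 separate levels were found by a rule. Their normalized counts had a gap of at least 2 on the log2(count + 1) scale, with at least 3 libraries on each side. The rule was met by 5 genes, and Pkd2l2, Pcdhgc3 and Pcdhga1, described above, did not meet it. A row without a symbol (NCBI gene ID 681419) had 116 to 173 normalized counts in all 16 libraries numbered 3 to 31. In libraries 32 to 54 it was at 0 in 9 and at the upper level only in libraries 35 and 51 (log2 fold -2.78 ± 0.61, adjusted p = 0.00165 by edgeR). Nox1, an NADPH oxidase, had 46.5 to 102 normalized counts in libraries 3, 6, 9, 12, 26 and 31 and 1.10 to 8.81 in the other 21, and it was called lower (log2 -2.10 ± 0.56, adjusted p = 0.00874 by edgeR). Slc24a5, a cation exchanger of pigment cells, had 208 to 332 in libraries 3, 6 and 26 and 18.4 to 45.5 elsewhere, with no call (adjusted p = 0.0695 by edgeR). Plaat3, a phospholipase and acyltransferase, was at 16.8 to 29.4 in 2 libraries of the first set and 3 of the second and at 151 to 693 in the other 22, with no call between the sets (adjusted p = 0.407 by edgeR). The last was Gpr39, given above.

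Among the 2346 genes with the lowest mean over all libraries, 3.41% were higher and 7.12% lower in libraries 32 to 54, against 15.2% and 11.6% among the 2346 with the highest. The GC content of the promoter was known for 9494 of the 11730 tested genes (80.9%). Higher calls went from 4.84% among the 950 genes of lowest GC to 13.4% among the 950 of highest GC, and lower calls from 7.37% to 10.0%, with values between 6.53% and 11.1% in the groups between. The median mean count of the genes was 157 and 465 in the same end groups, so level and GC cannot be told apart here.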
